A study of Homo sapiens with 8 samples.

Results

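The genes described here are 36 human genes of the endoplasmic reticulum (ER) and the unfolded protein response, out of 28850 genes tested. They were chosen by function, as ER chaperones, enzymes of disulfide bond formation, stress sensors, parts of the degradation machinery and parts of the entry and export machinery, and each was found through the RefSeq accession of its probe. All 36 had a probe that passed the filter on dim signal, and 35 of them were well above background on all 8 arrays, ERN1 being the exception with 7. The cells were LNCaP, an established line from a human prostate cancer metastasis, transfected with 30 nM of an siRNA against the transcription factor GATA2 (siGATA2) or 30 nM of a scrambled siRNA (siControl). RNA was taken after 72 h and read on 1-colour Agilent arrays, 4 per group, described as biological replicates. All cells were grown in medium with fetal bovine serum, no agent that provokes ER stress is named for either group, and no untransfected or second control group was analysed here.

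Proteins meant for secretion enter the ER through the SEC61 channel, are folded there by chaperones and disulfide isomerases, and leave in vesicles coated with COPII. When unfolded protein accumulates, the sensors ATF6, IRE1 (encoded by ERN1) and PERK start the unfolded protein response, in which cleaved ATF6 and the spliced form of XBP1 raise the transcription of chaperone, degradation and transport genes while PERK slows translation and acts through ATF4. Luminal prostate cells are secretory cells whose main products, the kallikreins KLK2 and KLK3 (prostate-specific antigen), pass through this route.

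GATA2 itself was checked first. Its log2 signal was 12.61, 12.54, 11.57 and 11.40 on siGATA2 arrays 1 to 4 and 11.74, 11.28, 11.10 and 11.29 on siControl arrays 1 to 4. The groups overlapped and the siGATA2 mean was the higher, by 0.68 ± 0.312 (SE) on the log2 scale, with an adjusted p of 0.154 in limma and an exact two-sided permutation p of 0.143. The mRNA measured by this probe was therefore not lower on the arrays labelled siGATA2, and all directions below are between labels. With 4 arrays against 4, the smallest exact permutation p is 0.0286.

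The arrays differed in quality. Between 33969 and 36968 probes were well above background on 6 arrays, against 28485 on siControl 1 and 24241 on siControl 3, and the E1A spike-in RNA added to every sample averaged 11.13 on siControl 1 against 13.45 to 13.83 on the other 7. The letters in the sample titles, whose meaning is not given, ran A, B, E and F for siGATA2 1 to 4 and B, D, F and G for siControl 1 to 4. Luminal identity was present in both groups, since all 9 luminal markers, among them KLK2, KLK3, HOXB13, FOLH1, TMPRSS2, KRT8 and KRT18, were well above background on all 8 arrays. Of the 11 measured markers of basal, stromal, endothelial, immune and neuroendocrine cells, 3 were so, and their mean log2 signal was 5.65 to 5.96 on siGATA2 and 5.61 to 5.87 on siControl arrays.

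As many of the 36 genes were lower as higher in the quantile-normalized values, a balance that depended on the scaling. At an adjusted p under 0.05 over all genes, 8 were lower on siGATA2 arrays (HYOU1, SDF2L1, PDIA4, AGR2, CREB3L2, SPCS3, SRPRB and SEC24D), 8 were higher (HSPA5, HSP90B1, DNAJB9, ERO1A, ERO1B, ATF6, WFS1 and EDEM1) and 20 did not pass. Of all genes tested 14.2% were lower and 12.3% higher, and of the 13252 named genes well above background on every array 23.2% were lower and 17.4% higher, so that 8 of 36 in either direction lay near the share among well-measured genes. With a fold of at least 2 added, 5 members were lower (13.9%) and 2 higher (5.56%), against 7.13% and 4.52% of all genes and 11.4% and 5.4% of the named genes above background. The groups did not overlap for 10 members in the lower (27.8%) and 8 in the higher direction (22.2%), against 16.5% and 16.2% of all genes and 26.5% and 21.8% of the named ones. With scaling on the upper quartile 12 members were lower and 6 higher, and with scaling on the E1A spike-in 4 were lower and none higher. The median log2 difference of the members was -0.07, beside 0.09 for all genes tested and 0.00 for the named genes above background. The count of higher members fell to 5 without siGATA2 2, siGATA2 3 or siControl 2 and to 4 without siControl 3 or siControl 4, while the count of lower members was 7 or 8 whichever array was left out.

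**Figure D1:**
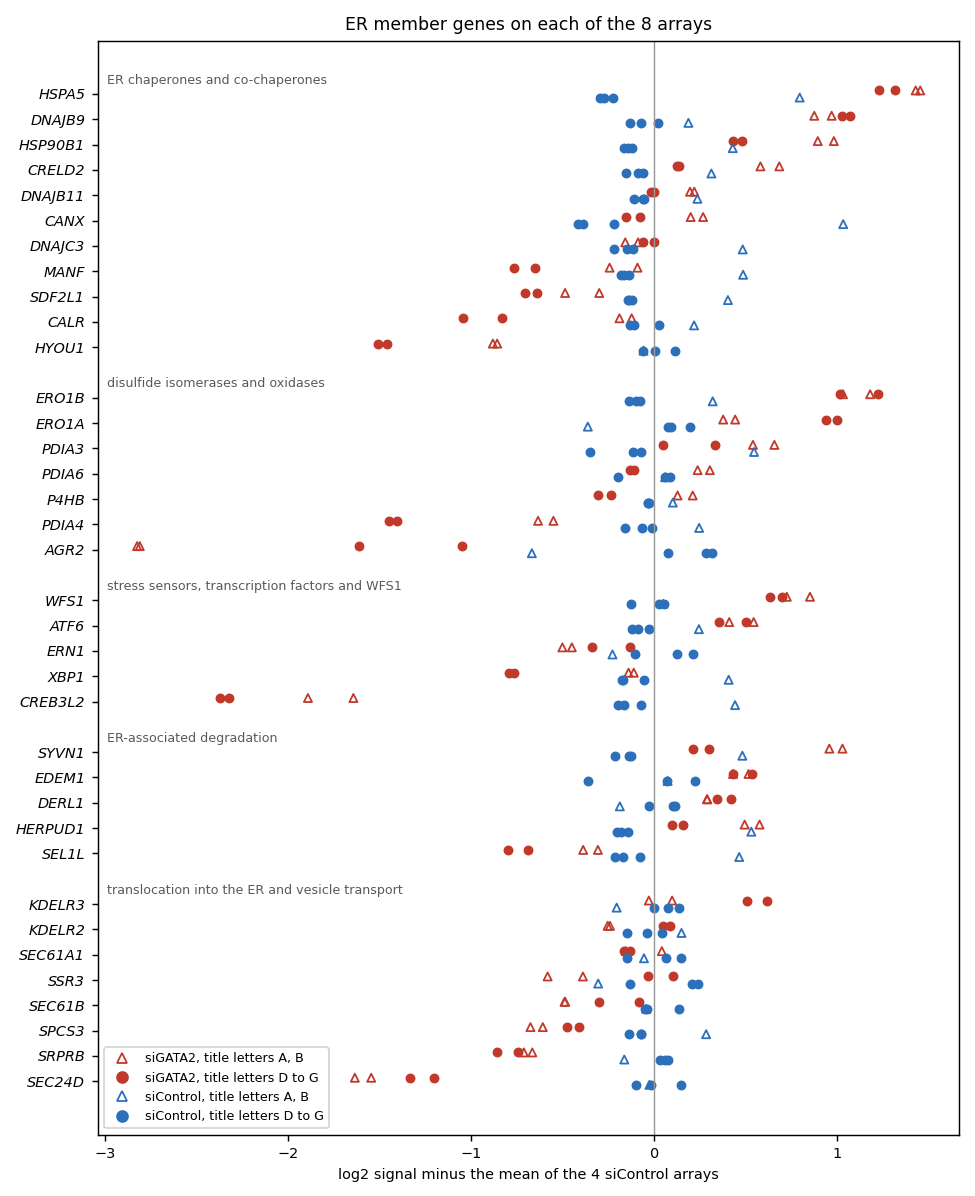
Log2 signal of each of the 36 genes on each of the 8 arrays (horizontal axis, minus the mean of the 4 siControl arrays), by role; red marks siGATA2, blue siControl, open triangles the arrays with title letter A or B and filled circles those with D to G. HSPA5, ERO1B and WFS1 had all 4 red points right of all blue ones, SEC24D, SRPRB and CREB3L2 all 4 to the left, and for CANX the siControl array with letter B lay far right of the other 3.

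Many of these genes are known targets of ATF6 and XBP1 through a short promoter element, so the start-site windows were read as well. The calls were already known when the windows were searched. The windows ran from 250 bases before to 50 bases after an annotated start (RefSeq, build GRCh38.p14) and were at hand for 32 of the 36 genes. The ER stress response element (ERSE) was searched as CCAAT and CCACG separated by 9 bases, on either strand, and was found in 8 of the 32 genes (25.0%) and in 25 of 27305 genes in all (0.0916%). Its relative ERSE-II was searched as ATTGG and CCACG separated by 1 base, on either strand, and was found in 3 of the 32 (9.38%), against 0.0696% of all genes. The matches are shown because ATF6 and XBP1 are known to act on chaperone genes through these elements, and the genes that hold them did not all move one way. Each stretch is given 5′ to 3′ on the strand of its gene with up to 12 flanking bases, and capitals mark the match, in which CGTGG and ATTGG are the same letters read on the other strand.
HSPA5, chr9:125241379-125241421, minus strand: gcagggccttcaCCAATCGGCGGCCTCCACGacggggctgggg
XBP1, chr22:28800591-28800633, minus strand: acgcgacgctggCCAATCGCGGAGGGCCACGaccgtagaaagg
CANX, chr5:179698766-179698808, plus strand: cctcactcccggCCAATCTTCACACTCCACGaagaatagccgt
PDIA6, chr2:10812841-10812883, minus strand: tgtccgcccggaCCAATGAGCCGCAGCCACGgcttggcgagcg
CALR, chr19:12938372-12938414, plus strand: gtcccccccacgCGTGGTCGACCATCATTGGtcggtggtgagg
CRELD2, chr22:49918542-49918584, plus strand: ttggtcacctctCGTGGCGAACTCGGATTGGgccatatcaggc
ERO1B, chr1:236282171-236282208, minus strand: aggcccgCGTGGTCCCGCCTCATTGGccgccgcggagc
HSP90B1, chr12:103930204-103930351, plus strand: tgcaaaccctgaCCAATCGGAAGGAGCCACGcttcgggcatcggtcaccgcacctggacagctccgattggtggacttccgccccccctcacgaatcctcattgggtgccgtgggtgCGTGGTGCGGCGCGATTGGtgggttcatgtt
HERPUD1 (ERSE-II), chr16:56932013-56932047, plus strand: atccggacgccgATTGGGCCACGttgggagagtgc
SDF2L1 (ERSE-II), chr22:21642102-21642136, plus strand: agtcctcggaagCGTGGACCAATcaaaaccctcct
HYOU1 (ERSE-II), chr11:119057262-119057402, minus strand: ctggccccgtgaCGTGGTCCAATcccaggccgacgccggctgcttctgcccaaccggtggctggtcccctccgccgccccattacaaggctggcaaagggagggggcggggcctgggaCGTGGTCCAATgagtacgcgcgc

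Of the 8 genes with the ERSE letters, 3 were higher on siGATA2 arrays (HSPA5, ERO1B and HSP90B1), none was lower and 5 did not pass, with a median log2 difference of 0.23. Of the 3 with the ERSE-II letters, SDF2L1 and HYOU1 were lower and HERPUD1 did not pass. Among the named genes above background 17.4% were higher and 23.2% lower, and groups of 8 and 3 genes are too small to set against these shares. The calls of HSP90B1 and SDF2L1 were lost when single arrays were left out, as given below. The core TGACGTGG of the unfolded protein response element, searched on both strands, lay in the windows of HYOU1, KDELR3 and SSR3 (9.38% of members, 0.927% of all genes). The letters CCAAT alone, which also form one end of the ERSE, lay in 78.1% of member genes and 39.7% of all genes. The letters AGATAA, 1 form of the GATA core, lay on either strand in 2 of the 32 windows, those of AGR2 and HSPA5 (6.25%, against 12.4% of all genes). Other forms of the GATA core were not searched, so these shares do not count all GATA sites. A match in these windows is a description of letters only, and binding was not measured.

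**Figure D2:**
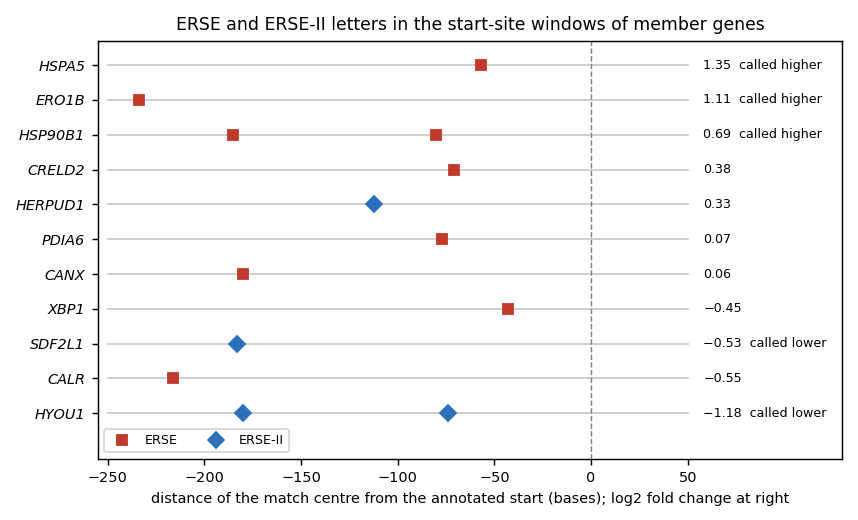
Distance of each ERSE (red squares) and ERSE-II match (blue diamonds) from the annotated start (horizontal axis, in bases) in the 11 member genes that hold one, ordered by their log2 fold change, which is printed at the right; grey lines span the window. For CANX the annotated start farthest from the match is drawn. The genes with ERSE-II were SDF2L1 and HYOU1 at the lower end and HERPUD1 at 0.33. The 3 called higher held ERSE, as did 5 that did not pass.

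Among the 11 ER chaperones and co-chaperones, 3 were higher (27.3%), 2 lower (18.2%) and 6 did not pass. Of the named genes above background 17.4% were higher and 23.2% lower. HSPA5 (BiP), the abundant ER chaperone of the HSP70 family that also holds the stress sensors inactive, had log2 signals of 12.41, 12.38, 12.18 and 12.27 on siGATA2 and 11.75, 10.73, 10.66 and 10.68 on siControl arrays. All siGATA2 arrays lay above all siControl arrays, and siControl 1 lay well above the other 3 controls. The difference was 1.35 ± 0.250 (SE) on the log2 scale, 2.56-fold, with an adjusted p of 0.00527. DNAJB9 (ERdj4), the co-chaperone that keeps IRE1 in check, read 13.04, 13.13, 13.19 and 13.24 against 12.35, 12.19, 12.09 and 12.03. Its groups stood apart with little spread within either, a rise of 0.98 ± 0.109 (adjusted p 0.000410).

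HSP90B1 (GRP94), the HSP90 of the ER, measured 17.74, 17.66, 17.24 and 17.19 on siGATA2 and 17.19, 16.64, 16.60 and 16.62 on siControl arrays. The lowest siGATA2 array and siControl 1 met at the same level, and the rise was 0.69 ± 0.194 with an adjusted p of 0.0322. A second probe of the gene gave 0.77 (adjusted p 0.0169 in the fit over probes). The call rested on few arrays, since the adjusted p of the first probe was 0.0796 without siGATA2 1, 0.0850 without siGATA2 2, 0.0867 without siControl 2, 0.0790 without siControl 3 and 0.0870 without siControl 4. It did not pass with scaling on the upper quartile (0.43, adjusted p 0.126).

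HYOU1 (GRP170), which reloads HSPA5 with ATP and whose promoter carries 2 of the ERSE-II matches printed above, went the other way from its partner. It measured 9.602, 9.579, 9.0015 and 8.95 on siGATA2 against 10.40, 10.47, 10.40 and 10.58 on siControl arrays. The groups were far apart, a fall of 2.26-fold (log2 difference -1.18 ± 0.180, adjusted p 0.00206). SDF2L1, a cofactor of the HSPA5 cycle, fell by less, with 15.54, 15.35, 15.13 and 15.19 against 16.24, 15.70, 15.69 and 15.71 (difference -0.53 ± 0.164, adjusted p 0.0454). The groups of SDF2L1 did not overlap, but its adjusted p lay between 0.0512 and 0.105 when siGATA2 2, siGATA2 3, siGATA2 4 or any one siControl array was left out.

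The other 6 chaperones did not pass. CALR, the lectin chaperone calreticulin, measured 17.45, 17.39, 16.74 and 16.53 on siGATA2 and 17.79, 17.60, 17.44 and 17.47 on siControl arrays, a difference of -0.55 (adjusted p 0.120) in which siGATA2 1 sat at the level of the lower controls. CANX, its membrane-bound counterpart calnexin, gave 0.06 (adjusted p 0.914), with 12.14 on siControl 1 and 10.69 to 10.89 on the other 3 controls. MANF, a secreted HSPA5-binding factor, gave -0.44 and CRELD2, a secreted ER-stress protein, 0.38 (adjusted p 0.181 and 0.161). The HSPA5 co-chaperones DNAJB11 and DNAJC3 gave 0.10 and -0.08, and their siGATA2 arrays lay inside the range of the siControl arrays.

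**Figure D3:**
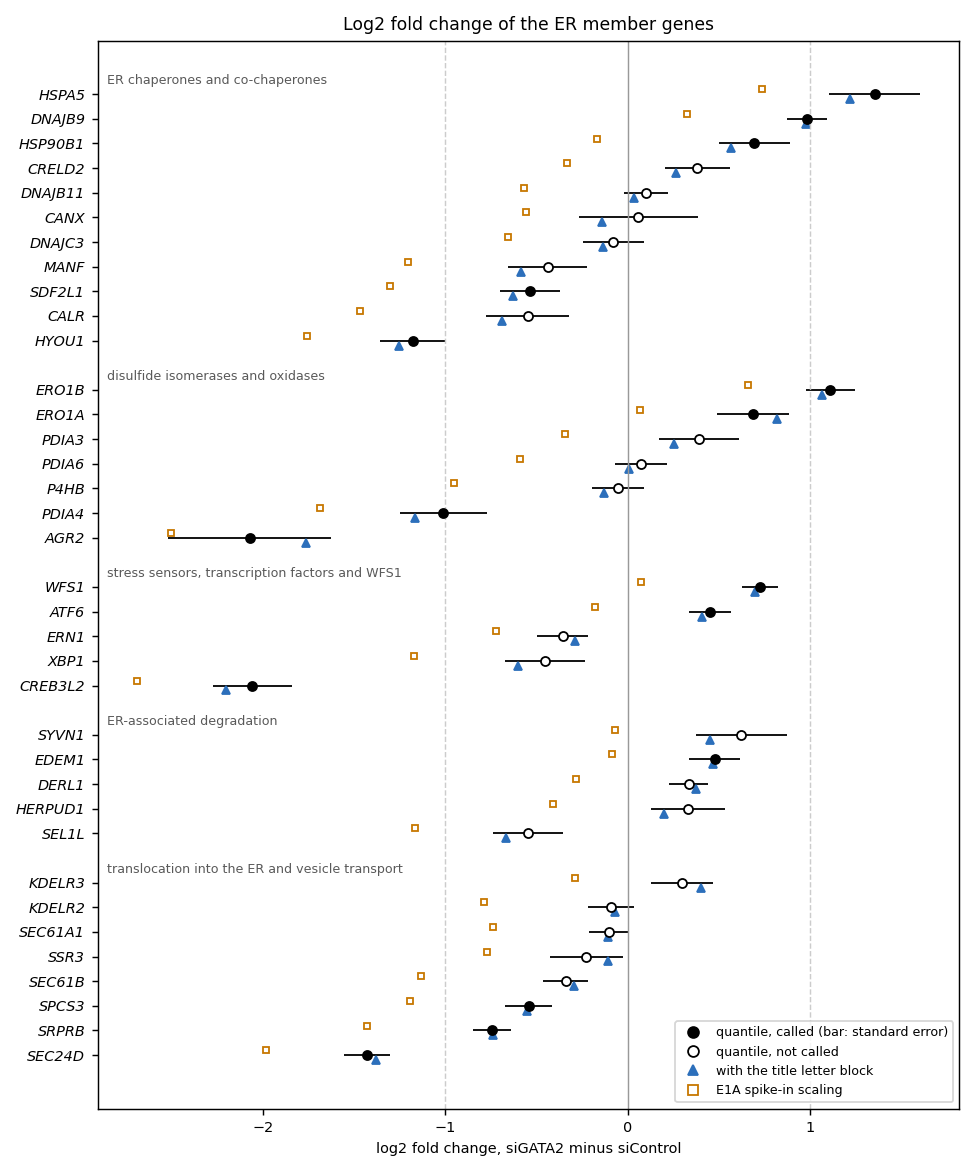
Log2 fold change (siGATA2 minus siControl, horizontal axis) of the 36 genes by role. Circles with standard error bars are the quantile-normalized values (filled where the adjusted p is under 0.05). Triangles are the fit whose block is the 2 sides of the title letters, A or B on one and D to G on the other. That cut was made with the data known. Squares are the values scaled on the E1A spike-in. Every square lies left of its circle, and triangles and circles agree in sign except for CANX, at 0.06 and -0.14.

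Among the 7 disulfide isomerases and oxidases, 2 were higher (28.6%), 2 lower (28.6%) and 3 did not pass. Of the named genes above background 17.4% were higher and 23.2% lower, and 7 genes are few for such a comparison. The higher genes were the oxidases ERO1A and ERO1B. ERO1A and ERO1B pass the electrons from newly made disulfide bonds on to oxygen. ERO1B measured 8.48, 8.33, 8.31 and 8.52 on siGATA2 against 7.62, 7.22, 7.16 and 7.20 on siControl arrays, with no overlap and a rise of 2.16-fold (1.11 ± 0.133, adjusted p 0.000597). ERO1A measured 11.30, 11.37, 11.93 and 11.87 against 10.56, 11.12, 11.003 and 11.02. The groups of ERO1A did not overlap, and the difference was 0.69 ± 0.197 (adjusted p 0.0352), with an adjusted p of 0.0536 to 0.0867 when siGATA2 3, siGATA2 4 or any one siControl array was left out.

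AGR2, a secretory isomerase relative found in mucus-producing and prostate tumour cells, had the largest fall of the 36 genes in this fit. It measured 5.57, 5.58, 6.78 and 7.34 on siGATA2 and 7.72, 8.71, 8.67 and 8.46 on siControl arrays. The groups did not overlap although the siGATA2 arrays spread widely, and the difference was -2.07 ± 0.445, a fall of 4.21-fold with an adjusted p of 0.0106. The arrays lay in 2 rows of the slide, siGATA2 1, 2 and 3 and siControl 4 in row 1, and with the row as a block the difference of AGR2 was -1.76 with an adjusted p of 0.0528. The same block also ended the calls of HSP90B1 (adjusted p 0.118), SDF2L1 (0.135), ERO1A (0.0845), ATF6 (0.0793) and EDEM1 (0.141), whose directions stayed as reported. PDIA4 (ERp72), an isomerase found in complexes with HSPA5, measured 12.69, 12.60, 11.79 and 11.83 against 13.48, 13.23, 13.08 and 13.17. Every siGATA2 array lay below every control, a fall of 2.02-fold (-1.01 ± 0.239, adjusted p 0.0163). PDIA4 did not pass with siControl 2 and 4 as the controls (-0.97, adjusted p 0.0807) or with E1A scaling (-1.69, adjusted p 0.0530). PDIA3 (ERp57), the partner of the lectin chaperones, gave 0.39, PDIA6 gave 0.07 and P4HB, the main protein disulfide isomerase, gave -0.05, none of which passed. PDIA3 reached an adjusted p of 0.0463 without siControl 1, at 0.57.

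Of the 5 sensors, transcription factors and WFS1, CREB3L2 changed most. CREB3L2, a membrane-bound transcription factor that is cleaved in the Golgi and is known to switch on COPII coat genes, measured 10.78, 10.53, 10.10 and 10.05 on siGATA2 and 12.86, 12.22, 12.34 and 12.25 on siControl arrays. No array came near the other group, and the fall was 4.17-fold (-2.06 ± 0.218, adjusted p 0.000321). A second, dimmer probe of CREB3L2 did not show it, at -0.07 (adjusted p 0.744), and what separates the 2 probes was not tested.

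ATF6, the sensor released to the Golgi when HSPA5 leaves it, measured 11.97, 12.10, 12.06 and 11.91 on siGATA2 and 11.80, 11.53, 11.47 and 11.44 on siControl arrays. The groups stood apart by a narrow margin, at 0.45 ± 0.116 (adjusted p 0.0235), with an adjusted p of 0.0591 to 0.0751 without siGATA2 2, siGATA2 3, siControl 2, siControl 3 or siControl 4. WFS1 (wolframin), an ER membrane protein that restrains ATF6, measured 13.00, 13.12, 12.97 and 12.91 against 12.32, 12.15, 12.30 and 12.32, a clear separation of 0.73 ± 0.0990 (adjusted p 0.00118). XBP1 measured 14.83, 14.80, 14.15 and 14.18 against 15.35, 14.76, 14.88 and 14.77. The groups of XBP1 overlapped, at -0.45 ± 0.220 (adjusted p 0.176), and the array does not separate its spliced from its unspliced form. ERN1 was dim, at 6.15 to 6.52 on siGATA2 and 6.42 to 6.86 on siControl arrays, and did not pass (-0.36, adjusted p 0.104).

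ER-associated degradation was represented by 5 genes, of which 1 was higher (20%, near the 17.4% of named genes above background) and 4 did not pass. EDEM1, which picks out misfolded glycoproteins by trimming their mannoses, measured 10.08, 10.00, 10.10 and 10.00 on siGATA2 and 9.64, 9.79, 9.21 and 9.64 on siControl arrays. The siGATA2 arrays were nearly level and all above the controls, at 0.48 ± 0.139 (adjusted p 0.0382), but the adjusted p lay between 0.0556 and 0.0868 when any array except siControl 1 or siControl 2 was left out. SYVN1 (HRD1), the ubiquitin ligase of the pathway, gave 0.62 (adjusted p 0.107) and its partner SEL1L gave -0.55 (adjusted p 0.0711), with no overlap of the groups for SEL1L alone of the pair. The 3 probes of SEL1L gave -0.55, -0.20 and -0.75, with adjusted p of 0.0703, 0.639 and 0.00445 in the fit over probes. The third and dimmest probe thus passed where the brightest, used for the gene, did not. DERL1, a channel component, gave 0.33 (adjusted p 0.0528) with no overlap of the groups, and HERPUD1, a scaffold of the ligase complex, gave 0.33 (adjusted p 0.276). Without siControl 1, SYVN1 reached an adjusted p of 0.0468 at 0.78 and HERPUD1 one of 0.0420 at 0.50.

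The 8 genes of ER entry and vesicle transport held 3 that were lower (37.5%) and none that was higher. Beside them stand 23.2% lower and 17.4% higher among named genes above background, and 8 genes are few for such a comparison. SEC24D, a cargo-binding subunit of the COPII coat, measured 8.94, 8.85, 9.28 and 9.15 on siGATA2 and 10.46, 10.63, 10.39 and 10.47 on siControl arrays. Both groups were tight and far apart, a fall of 2.69-fold (-1.43 ± 0.128, adjusted p 0.000146). SRPRB, the membrane anchor of the receptor that docks ribosomes at the ER, measured 13.01, 12.96, 12.93 and 12.82 against 13.51, 13.75, 13.73 and 13.71, again without overlap (-0.74 ± 0.102, adjusted p 0.00120). SPCS3, a subunit of the signal peptidase, measured 12.48, 12.54, 12.68 and 12.74 against 13.43, 13.08, 13.08 and 13.01 (-0.54 ± 0.129, adjusted p 0.0166), with the highest siGATA2 array below the lowest control. With the slide row as a block SPCS3 gave -0.45 (adjusted p 0.0836).

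The remaining 5 genes of this role did not pass. SEC61B and SEC61A1, subunits of the channel, gave -0.34 (adjusted p 0.0823) and -0.10, and SSR3, of the translocon-associated complex, gave -0.23. SEC61B did not overlap between groups, and without siGATA2 3 its adjusted p was 0.0366 at -0.43. KDELR2 and KDELR3, receptors that return ER proteins from the Golgi, gave -0.09 and 0.30. Averaged over the 8 genes, the log2 signal was 11.90, 11.90, 12.18 and 12.12 on siGATA2 and 12.38, 12.47, 12.39 and 12.45 on siControl arrays.

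Arrays of the same siRNA differed among themselves in these genes, and mostly in the same direction in both groups. The title letters were split into A and B against D to G, a cut made with the data known and one the labels do not explain, and within siControl the A and B side is array 1 alone. The difference between the sides was taken within siGATA2 (A and B minus E and F) and within siControl (B minus D, F and G), 2 differences that share no array. Of the 36 genes 19 were higher on the A and B side in both groups and 8 lower in both, a Pearson r of 0.66 across genes, which are not independent. For the 13252 named genes above background the r was 0.67, so the members did not stand out in this respect. The medians of the 36 genes were 0.15 within siGATA2 and 0.30 within siControl, against -0.16 and -0.08 for those 13252 genes. Of the 11 chaperones 8 were higher on the A and B side in both groups and none lower in both, and XBP1 gave 0.65 and 0.54.

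**Figure D4:**
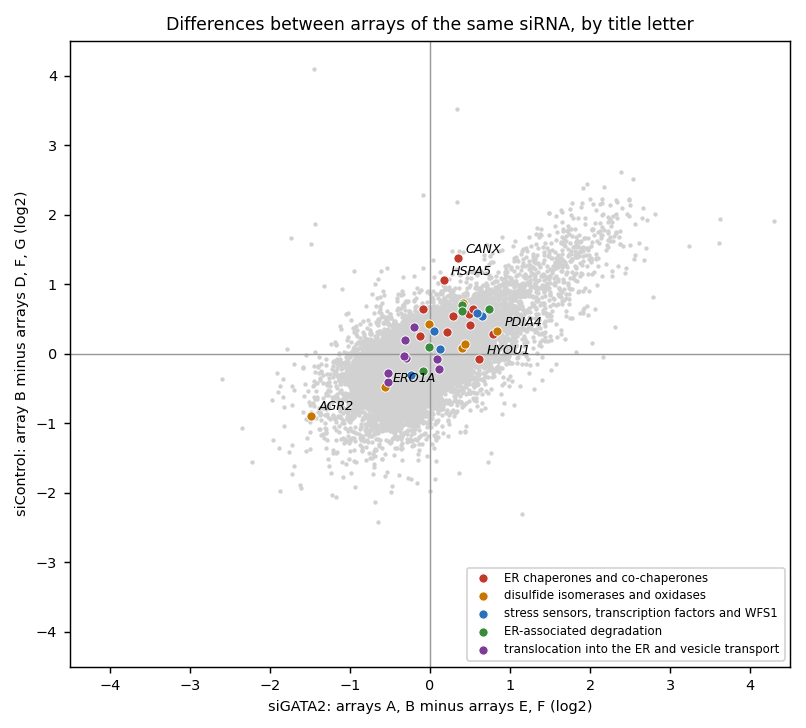
Differences between arrays of the same siRNA, on the log2 scale: title letters A and B minus E and F among siGATA2 arrays (horizontal axis) against B minus D, F and G among siControl arrays (vertical axis). Grey points are the 13252 named genes well above background, coloured points the 36 genes by role; AGR2, at -1.49 and -0.89, lay lowest on both axes among the 36, and 19 of them lay in the upper right, positive on both axes.

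With each title letter as a random block, 11 members were lower and 9 higher, the additions being CALR (-0.58, adjusted p 0.0394), SEL1L (-0.59, adjusted p 0.0181) and SEC61B (-0.34, adjusted p 0.0356) among the lower and DERL1 (0.36, adjusted p 0.0148) among the higher genes. With the 2 sides as a block, 14 members were lower and 12 higher, but calls rose over all genes too, to 20% lower and 24.9% higher. Since the sides were drawn from the way the arrays deviate, calls kept or gained in that fit are a description and support nothing. In it HSPA5 gave 1.22 ± 0.175 and HYOU1 -1.26 ± 0.144. MANF (-0.59), XBP1 (-0.60), ERN1 (-0.29), CRELD2 (0.26), SYVN1 (0.45) and KDELR3 (0.40) passed there and did not pass with the letters as a random block. The siGATA2 minus siControl difference had the same sign on both sides for 30 of the 36 genes (83.3%, against 78.8% of the named genes above background), CREB3L2 at -2.21 and -2.20 and HSPA5 at 0.65 and 1.53 for A and B and for D to G in turn, and CANX at -0.80 and 0.23 among those that did not. What the letters stand for, and so the part of sample handling in these differences, was not tested.

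The same pathway beyond the 36 genes was read from 8 further lists, described by counts without a test of the lists. The names beyond the largest fall and rise of each list were added after their values were seen. Of 9 genes of the PERK branch and the integrated stress response, 2 fell and 2 rose (22.2% each), and the median log2 difference was -0.04. These shares lay near the 23.2% lower and 17.4% higher of named genes above background. ATF3, a stress-induced repressor, measured 15.40, 15.64, 15.88 and 16.14 on siGATA2 and 12.66, 13.50, 13.33 and 13.35 on siControl arrays, a rise of 2.55 ± 0.232 (adjusted p 0.000157) with no overlap. PPP1R15A (GADD34), which reverses the translation block, rose by 0.81. CHAC1, a glutathione-degrading target of ATF4, measured 8.53, 8.70, 9.13 and 8.91 against 10.22, 10.33, 10.38 and 10.35, below every control at -1.50 ± 0.144 (adjusted p 0.000204), and TRIB3, another ATF4 target, fell by 0.75. Of the 7 other stress transducers and their proteases MBTPS2, the protease that makes the last cut in ATF6, was the 1 gene called, at 0.70. That is 14.3% higher, below the 17.4% of named genes above background.

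Other ER folding enzymes were lower in 7 of 26 cases (26.9%, near the 23.2% of named genes above background) and higher in 1 (3.85%, against 17.4%), with a median of -0.23. FKBP7, a prolyl isomerase, measured 8.08, 7.88, 7.96 and 8.10 on siGATA2 and 10.02, 10.35, 10.22 and 10.24 on siControl arrays, a fall with an adjusted p of 1.89e-05 (-2.20 ± 0.112). PPIB (cyclophilin B) followed at -1.99, PDIA5 at -1.81, FKBP11 at -1.44, PRDX4, a peroxiredoxin of the ER, at -1.07, and the higher gene was ERP29, at 0.37. Among 12 oligosaccharyltransferase genes, which attach the first sugars, 2 were lower (16.7%), RPN1 (-0.56) and OSTC (-0.52). In the same list 1 was higher (8.33%), TUSC3 (0.38), and the median was 0.28. Among 18 other genes of targeting, the channel and the signal peptidase, 1 was lower (5.56%), SEC11A (-0.48), the catalytic subunit of the peptidase. SRP14 (0.73) and SPCS1 (0.66) were higher (11.1%). The shares of these 2 lists lay below the 23.2% lower and 17.4% higher of named genes above background.

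Further genes of degradation and transport were more often called higher than lower in the quantile-normalized fit, the only one in which the further lists were read. Over all genes the share called higher was 12.3% in that fit. It ranged from 0.489% with E1A scaling to 24.9% with the 2 sides of the title letters as a block. Of 20 further degradation genes 9 were higher (45%) and 2 lower (10%), UBE2G2 (-0.74) and NGLY1 (-0.42). Of 24 COPII, COPI and cargo receptor genes 9 were higher (37.5%) and 3 lower (12.5%), with a median of 0.32. Among named genes above background 17.4% were higher and 23.2% lower. KDELR1 was the highest at 0.98 (adjusted p 0.000468), while the cargo receptor LMAN1 fell by 0.93, its partner MCFD2 by 0.61 and the coat GTPase SAR1A by 0.58. The pathway thus held both directions, with SEC24D and LMAN1 lower and KDELR1 higher.

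Cytosolic chaperones, which serve proteins outside the ER, gave 4 lower of 20 measured (20%, below the 23.2% of named genes above background). In this list 1 was higher (5%, against 17.4%), and the median was -0.19. HSPH1 (-0.63), CCT6A (-0.62), CCT3 (-0.54) and CCT4 (-0.37) were lower, and DNAJB4, an HSP40 co-chaperone, rose by 2.00 ± 0.281 (adjusted p 0.00134).

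**Figure D5:**
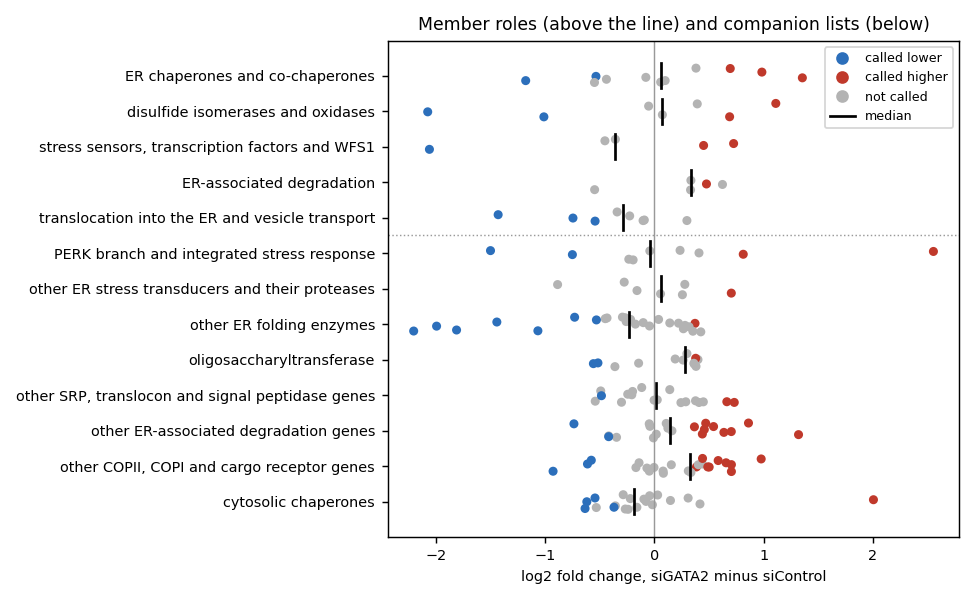
Log2 fold change (horizontal axis) of every measured gene of the 5 roles (above the dotted line) and of the 8 further lists (below it); blue points were called lower, red higher, grey not called, and black bars are medians. Other ER folding enzymes reach -2.20 on the left, while degradation and transport lists have more red than blue points.

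Beside these values stand those of the cells' secreted products and markers. KLK2 measured 11.87, 11.70, 10.53 and 10.78 on siGATA2 and 12.72, 13.16, 13.23 and 13.15 on siControl arrays, and was lower at a log2 difference of -1.84 ± 0.317 (adjusted p 0.00372). KLK3 (-1.63) and HOXB13 (-0.40) were lower too, KRT8 was higher (0.56), and FOLH1 (0.43), TMPRSS2 (-0.13) and KRT18 (0.19) did not pass. These markers and the ER genes were measured in the same cells, and the part of one in the other was not tested. Of the markers of other cell types VWF was lower (-0.96), and PTPRC (0.87) and CD68 (2.00) were higher. The fibroblast marker COL1A1, at 8.52 to 9.84, was well above background on all 8 arrays and did not pass (-0.13). CD3E, at 6.46 to 6.81, did not pass either (-0.14). KRT14, TP63, COL1A2, DCN, PECAM1 and CHGA were dim, at 2.12 to 6.45 on any array. In RNA from whole cultures, fewer cells of a kind and less RNA per cell cannot be told apart.

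The number of members called higher depended on the scaling. When the arrays were set level on the 7 E1A probes, the median of all genes moved from 0.09 to -0.43. The 36 genes moved down by a median log2 difference of -0.65, between -0.37 for ERN1 and -0.92 for CALR, and 33 of them by more than the all-gene shift of -0.52. Under this scaling 4 members were lower (HYOU1, AGR2, CREB3L2 and SEC24D) and none higher, against 6.59% and 0.489% of all genes, although HSPA5 was at 0.74 (adjusted p 0.543). HSP90B1, ATF6 and EDEM1 took the opposite sign under it, at -0.17, -0.18 and -0.084 without passing, and 9 genes that had not been called turned sign as well. E1A signal on siControl 1 was the low value given above. HYOU1, CREB3L2 and SEC24D were called lower under all 24 settings tried.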

How the data were processed

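LNCaP RNA was labelled with Cy3 and read on 8 arrays of 1 slide. The authors deposited the spot intensity written by Agilent Feature Extraction 11.0.1.1, of which the background-corrected processed signal was used, and a matrix of log2 values, per the methods quantile-normalized in GeneSpring (median 7.47 on each array), which correlated with the log2 processed signal of its own array at 0.985 or more. Any baseline of that matrix is not given in the sources used here. The array design in the file headers is not the one the methods name, and probes were named from the files.

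Log2 processed signals of unflagged spots were averaged per probe and quantile-normalized with limma 3.58.1 in R 4.3.3. Of 42405 probes, 27902 had a RefSeq accession and 26364 of these matched a symbol in the RefSeq table (GRCh38.p14, from which names and start windows came). Probes without annotation (1914) or with a mean log2 signal under 3 were removed, which left 35514, and each gene was read from its brightest probe, giving 28850 genes, 17858 of them with a symbol. Groups were compared with lmFit and eBayes, Benjamini-Hochberg adjustment over all genes, an adjusted p threshold of 0.05 and the fold of 2 of the methods. The exact permutation test was two-sided over the 8 arrays. On data simulated for the comparison of siGATA2 against siControl (28730 genes, 200 changed) the test recovered 37% of changes of 1 and 70% of changes of 2 on the log2 scale, with 4.46% of its calls false. The simulated noise was independent for each gene and array. Real deviations from the group mean were shared across genes, with a correlation of 0.77 between siGATA2 1 and 2, so these rates do not cover errors from such deviations. The simulation also changed far fewer genes than the reported fit called (4086 lower and 3558 higher). The adjusted p depends on that share, so the recovery rates do not carry over to the reported comparison.

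The genes named are all 36 members, GATA2, the markers, and the called gene with the largest fall and rise of each further list. Of the genes this rule names, 3 are not reported here. The members and lists were chosen with earlier results of these data known. Alternatives were other scalings, filters, tests and probe summaries, the deposited log2 values, blocks by replicate number, title letter and slide row, array weights and leaving out arrays, 24 settings in all. Slide and scan were the same for all arrays. Arrays have no read depth, and their number limits the precision. Protein sequences were not used here.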

Additional observations from a re-analysis of the deposited data

Results flagged for a closer look

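In 74 groups of 4 arrays (36 genes and GATA2, 2 groups each) the gap of an extreme array to its nearest neighbour was set against the range of the group, and 16 exceeded Dixon's critical value, which chance passes in about 1 of 20 groups. Of these, 12 were siControl 1, the array with the low spike-in signal and with title letter B. The 74 groups come from the same arrays and are not independent, so 16 of 74 cannot be judged against 1 of 20. Other genes were not put through it, so whether these genes stand out in this respect was not tested.

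On siControl 1 the log2 signal lay above the other 3 controls for HSPA5 (11.75, others 10.66 to 10.73), HSP90B1 (17.19, others 16.6 to 16.64), CANX (12.14, others 10.69 to 10.89), DNAJB11 (13.26, others 12.91 to 12.96) and DNAJC3 (10.97, others 10.27 to 10.37). The same held for SDF2L1 (16.24, others 15.69 to 15.71), MANF (16.39, others 15.72 to 15.76), P4HB (17.18, others 17.04), ERO1B (7.619, others 7.161 to 7.221), HERPUD1 (15.64, others 14.91 to 14.97), SYVN1 (13.78, others 13.09 to 13.17) and SPCS3 (13.43, others 13.01 to 13.08).

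The other 4 were spread over arrays. PDIA6 was low on siControl 3 (12.69, others 12.95 to 12.97), WFS1 was low on siControl 2 (12.15, others 12.3 to 12.32), SEC61B was high on siControl 2 (16.05, others 15.86 to 15.88) and SEC61A1 was high on siGATA2 1 (12.39, others 12.19 to 12.22). What sets siControl 1 apart was not tested.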

How the results depend on the processing

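Over the 36 genes and 24 settings, 755 of 864 values stayed on their side of the threshold, 46 passed where the reported fit did not and 60 no longer passed. The sign turned in 28 values, of which 25 were called in neither fit and 3 belonged to called genes, HSP90B1 (-0.17), ATF6 (-0.18) and EDEM1 (-0.084) with E1A scaling, where 12 signs turned in all. The 8 lower members became 4 with E1A scaling, 12 with scaling on the upper quartile (6 higher) and 5 with the slide row block. They numbered 5 with siControl 2 and 4 only. With the 2 sides of the title letters as a block 14 were lower, and 13 with letters D to G only. The last 2 settings were chosen after seeing the data. The 8 higher members became 0 with E1A scaling, 4 with the slide row block, 12 with array weights, 12 with that block of 2 sides and 12 with D to G only. The 2 higher by 2-fold became 0 with E1A scaling, 1 with normexp, and 3 with array weights, the slide row block, siControl 2 and 4 only, or D to G only. Leaving out 1 array gave 7 to 8 lower, 4 to 10 higher, 4 to 5 lower by 2-fold and 2 to 3 higher by 2-fold. The median of the members was -0.69 with E1A scaling. The cause of the E1A shift was not tested.

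Replicate numbers did not pair the arrays (correlations of deviations 0.54, -0.31, 0.17 and 0.22). The replicate block gave 8 lower and 7 higher members. With it ATF6 (adjusted p 0.0652), EDEM1 (0.0855) and SPCS3 (0.0636) did not pass, while SEL1L (0.0399) and SYVN1 (0.0486) did.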
